A study of Drosophila melanogaster with 2 samples.

Results

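The genes described here are 10 Drosophila heat shock and chaperone genes, taken by name: Hsp22, Hsp23, Hsp26, Hsp27, Hsp67Bc, Hsp68, Hsp83, DnaJ-1, Hsc70-4 and Hsf. They are 10 of 13968 protein-coding genes on the major chromosomes, and each was found in the annotation under its own symbol. The measurement is chromatin immunoprecipitation with sequencing (ChIP-seq) of CG3847, a protein carried in these flies as a fusion with eGFP (strain CG3847-GFP, an insertion targeting CG3847) and precipitated with an anti-GFP antibody. Chromatin came from whole embryos 0 to 24 h old and was sonicated to 200 to 800 bp. Both libraries, biological replicates 1 and 2, belong to 1 group with the same strain, age and antibody, so the design holds no comparison of conditions and no test between groups. The labels name no heat treatment, and a whole-embryo peak does not say in which cells or at which hour the protein was present.

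Heat shock proteins are molecular chaperones that keep other proteins folded. Small heat shock proteins such as Hsp22 to Hsp27 hold unfolding proteins, the Hsp70 family folds them with the help of J-domain partners, and Hsp90 matures kinases and receptors. On heat stress, trimers of the heat shock factor Hsf bind arrays of inverted GAA units, called heat shock elements, in front of the inducible genes. In Drosophila, GAGA factor keeps several of these promoters open before heat shock. Hsc70-4 and Hsp83 are also made at high levels without stress.

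CG3847-eGFP peaks lay at 5 of the 10 genes, Hsp27, Hsp83, Hsc70-4, Hsp26 and Hsp22, and Hsp27 had the strongest of them. A gene was counted when the summit of a peak, its highest point, fell within 500 bp of a transcription start site or inside the gene. The optimal set, the authors' list from both replicates at a threshold on the irreproducible discovery rate (IDR) that its lowest score places at 0.01, holds 6148 peaks on the major chromosomes. By the same rule 35.4% of all protein-coding genes had an optimal peak, and among genes no longer than Hsf, the longest of the 10 genes at 4332 bp, the share was 28.2%. With summits near a start site alone, 4 of the 10 genes had a peak, beside 31.0% of all protein-coding genes. With 10 genes, named with earlier results of these data in view, neither count was tested.

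The peak sequences of Hsp27, Hsc70-4 and Hsp26 and of the Hsp83 intron are shown because these are the member peaks found in both replicates that lie outside untranslated regions. They come from the RefSeq Release 6 genome (dm6) and are written 5′ to 3′ on the strand of the gene. Capitals mark, on either strand, the heat shock element pairs GAANNTTC and TTCNNGAA, the GAGA factor letters GAGAG and the TATA letters TATAAA. The intervals are chr3L:9383773-9384062 (plus) for Hsp27, chr3R:15242407-15242593 (plus) for Hsc70-4, chr3L:9377460-9377660 (minus, 201 bp around the summit) for Hsp26 and chr3L:3194153-3194370 (plus) for the Hsp83 intron.
Hsp27: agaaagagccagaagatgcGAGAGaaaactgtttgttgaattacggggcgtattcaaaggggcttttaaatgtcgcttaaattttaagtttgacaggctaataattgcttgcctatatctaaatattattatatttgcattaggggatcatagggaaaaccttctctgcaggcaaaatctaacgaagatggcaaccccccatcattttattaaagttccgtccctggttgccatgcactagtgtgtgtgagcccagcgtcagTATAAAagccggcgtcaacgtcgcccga
Hsc70-4: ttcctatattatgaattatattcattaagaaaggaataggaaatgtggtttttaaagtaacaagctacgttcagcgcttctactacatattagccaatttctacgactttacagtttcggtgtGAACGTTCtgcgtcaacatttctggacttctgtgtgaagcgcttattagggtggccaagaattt
Hsp26: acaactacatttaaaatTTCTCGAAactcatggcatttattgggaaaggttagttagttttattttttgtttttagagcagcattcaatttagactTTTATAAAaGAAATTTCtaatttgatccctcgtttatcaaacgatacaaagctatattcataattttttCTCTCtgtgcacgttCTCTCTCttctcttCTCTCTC
Hsp83 intron: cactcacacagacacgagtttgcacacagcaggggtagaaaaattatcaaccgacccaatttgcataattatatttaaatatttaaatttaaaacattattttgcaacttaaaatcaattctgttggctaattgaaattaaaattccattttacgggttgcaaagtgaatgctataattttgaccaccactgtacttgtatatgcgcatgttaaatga

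**Figure D1:**
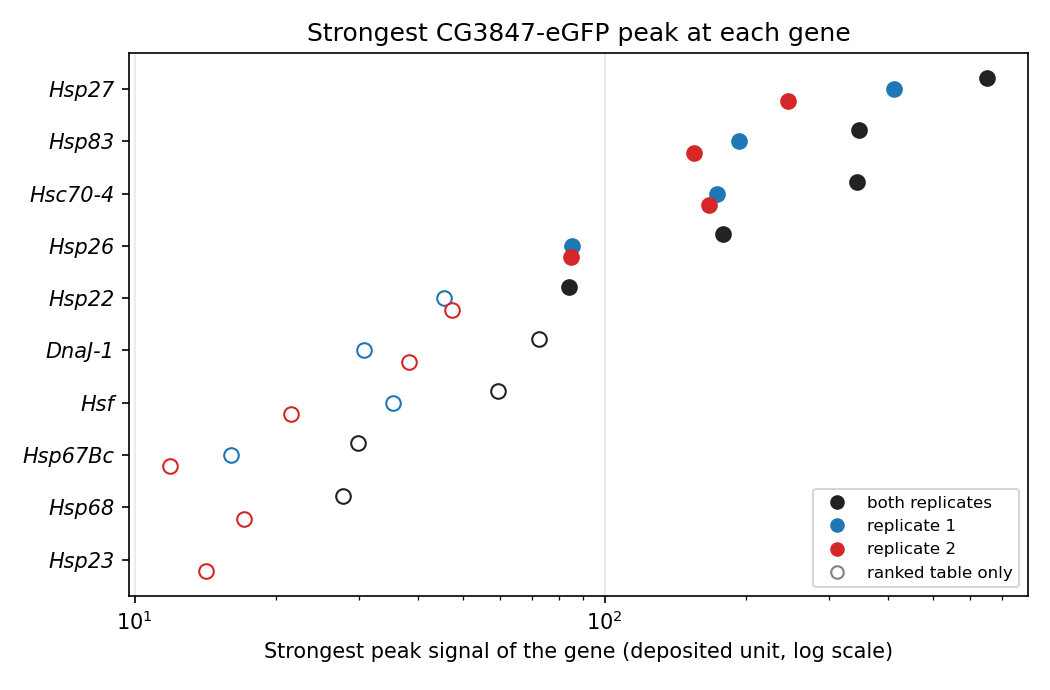
Strongest peak signal at each of the 10 genes, on a log axis in the deposited unit, from the lists of both replicates (black), replicate 1 (blue) and replicate 2 (red). Filled points are in a thresholded peak set and open points in a ranked table only; 4 genes are filled in all 3 colours, from Hsp27 at 649.9 down to Hsp26 at 179 in the list of both replicates.

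Hsp27 (FBgn0001226, chr3L:9384063-9385694, plus strand) encodes a small heat shock protein. Its optimal peak had a signal of 649.9, rank 213 of 6148, and 96.5% of the optimal peaks were weaker. The summit lay 149 bp upstream of the single start site, in intergenic sequence. In replicate 1 the peak had a signal of 412 (rank 165 of 4445) and in replicate 2 a signal of 245 (rank 323 of 4339). The replicates placed the summit 6 and 5 bp from that of the optimal peak. The signal was 1.68-fold higher in replicate 1, a log2 difference of 0.75, inside the range that held the middle 90% of optimal peaks, -0.77 to 1.01 with a median of 0.18. Signals carry the peak caller's own scale in each list, so a ratio between replicates is a description and not a difference in binding. Among 4330 protein-coding genes with a promoter peak Hsp27 ranked 240, just under the ribosomal protein gene RpS29 (652) and just above Lpin (641).

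A second, weak ranked peak lay inside the Hsp27 coding exon, 471 bp downstream of the start site. Its signal was 55, with 34.5 in replicate 1 and 28.9 in replicate 2, and its −log10 of the global IDR, for which the threshold is 2, was 0.38 in the ranked table of both replicates used throughout. In the other ranked table, which pairs the replicates, it was 1.79, closer to the threshold. The upstream peak is thus the one Hsp27 peak in the thresholded sets.

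Hsp83 (FBgn0001233, chr3L:3192969-3197059, plus strand) is the cytosolic Hsp90 of the fly, and it was the only one of the 10 genes with 2 optimal peaks. Over all protein-coding genes, 8.83% had 2 or more. The first Hsp83 peak (chr3L:3192999-3193213) had its summit 114 bp downstream of the first start site, in the 5′ UTR, with a signal of 343 (rank 732). The second (chr3L:3194153-3194370) lay in an intron, 1039 bp downstream of the second start site, with a signal of 347 (rank 711). The promoter peak had signals of 189 in replicate 1 and 155 in replicate 2, and the intron peak 193 and 148. Both replicates thus held both peaks, at near equal heights within a replicate, with log2 differences between replicates of 0.29 and 0.38. The summits of the intron peak differed by 1 and 9 bp from the optimal summit. Hsp83 ranked 808 among the genes with a promoter peak, between eIF3d1 (344) and Vha100-2 (343).

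The Hsp83 promoter and intron windows differed in base composition. In 201 bp around each summit the promoter window had 46.3% GC and the intron window 30.3%, with 81.4% and 14% of optimal windows lower. The intron window held a run of 30 bases of A and T alone, where the median longest run over optimal windows was 11. Another 5 ranked peaks at Hsp83 had signals of 3.28 to 46.1, all below the threshold, and 4 of them lay in coding exons.

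Hsc70-4 (FBgn0266599, chr3R:15242687-15246614, plus strand) encodes the main constitutive cytosolic Hsp70 protein. Its optimal peak had a signal of 344 (rank 727), with the summit 156 bp upstream of the first of 6 start sites. The signals were 173 in replicate 1 and 167 in replicate 2, a log2 difference of 0.05. The peak also lay 295 bp from a start site of tefu, the fly ATM kinase gene on the other side, so its signal cannot be assigned to one of the genes. By promoter signal Hsc70-4 ranked 803, between CG4860 and Zfrp8, whose signals also round to 344. The summit fell on the heat shock element pair GAACGTTC, 157 to 150 bp upstream, marked in the sequence above. Of the 6 ranked peaks at Hsc70-4, the others had signals of 19.6 to 43.3 and fell below the threshold. The one of 43.3 lay in an intron, 441 bp upstream of a later start site.

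Hsp26 (FBgn0001225, chr3L:9376418-9377427, minus strand), a small heat shock protein gene, had 1 optimal peak with a signal of 179 (rank 2118; 65.5% of optimal peaks weaker). The summit lay 133 bp upstream of the nearer start site. The signals were 85.4 in replicate 1 and 84.9 in replicate 2, a log2 difference of 0.01, and replicate 2 placed its summit 27 bp closer to the start site. Its rank among genes with a promoter peak was 2092, so 51.7% of them were weaker. The neighbours in that order were LTV1 and CG10561, both at 179. Another ranked peak at Hsp26, in the coding exon, had a signal of 16.5 and fell below the threshold. The 4 promoter peaks thus fell in 3 levels, Hsp27 above the near equal Hsc70-4 and Hsp83, and Hsp26 near the middle.

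Hsp22 (FBgn0001223, chr3L:9372931-9374964, plus strand), a mitochondrial small heat shock protein gene, had the weakest optimal peak of the 10 genes (chr3L:9373260-9373649). Its signal was 84.0 (rank 4885; 20.5% of optimal peaks weaker) and its summit lay 524 bp downstream of the first start site, in the 5′ UTR, just outside the promoter window. The second Hsp22 start site lay downstream of this summit, more than 500 bp away. The ranked summit of replicate 1 was 453 bp upstream of that start site, inside the promoter window. The optimal interval lies within the overlapping gene CG4456, also known as Hsp67Bb, which shares the first start site. The signal of this peak therefore cannot be assigned to one of the genes. The peak was in neither replicate's thresholded set. The ranked tables list it at 45.6 in replicate 1 and 47.3 in replicate 2, with −log10 of the global IDR of 1.09 and 1.70. Hsp22 therefore was the one gene whose peak rests on the list of both replicates. In each replicate set alone 4 of the 10 genes had a peak, beside 27.6% of protein-coding genes in replicate 1 and 29.5% in replicate 2. The ranked table of both replicates also held peaks of 29.8 and 18.6 at Hsp22, below the threshold.

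**Figure D2:**
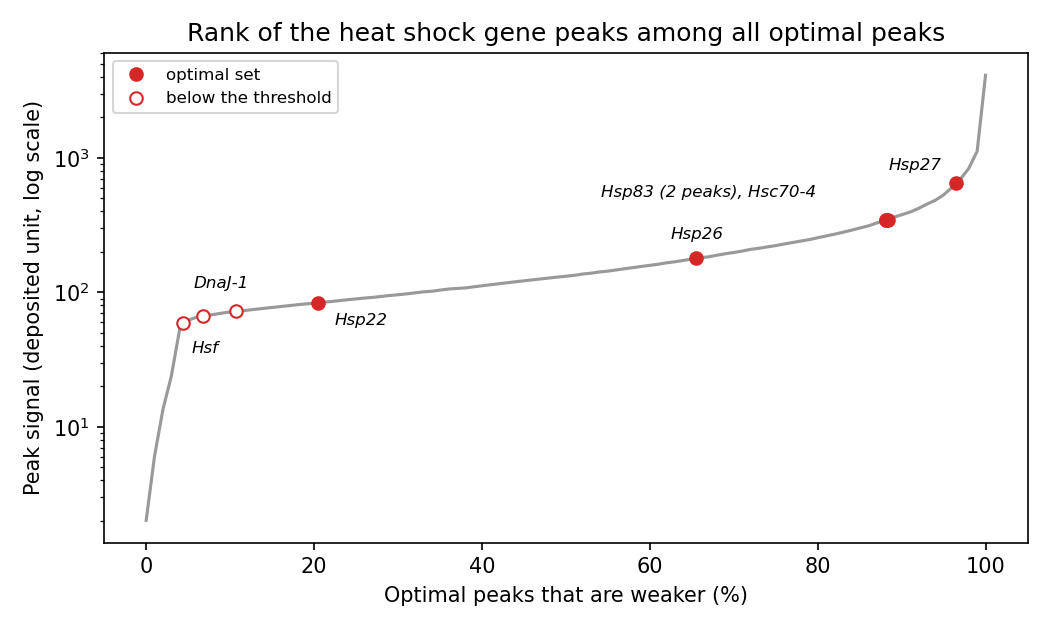
Signal of the optimal peaks in rising order (grey line; vertical axis log, deposited unit; horizontal axis, percent of optimal peaks that are weaker) with the peaks of the 10 genes marked. Filled points are optimal peaks, from Hsp22 at 20.5% to Hsp27 at 96.5%; open points are the strongest ranked peaks of DnaJ-1 and Hsf, which did not pass the threshold.

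The other 5 genes had no optimal peak and none in either replicate set. In the ranked table of both replicates, which lists 123663 peaks with no threshold, 9 of the 10 genes had a peak, beside 86.2% of all protein-coding genes. The 10 genes held 36 ranked peaks in all, of which 30 fell below the threshold with signals of 3.28 to 72.5 and a median of 25.5. The median of all ranked peaks below the threshold was 22.1. All 6 member peaks past the threshold in that table were in the optimal set, and all 6 were also in the conservative set, the authors' other list from both replicates.

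DnaJ-1 (FBgn0263106, chr3L:5750029-5752189, minus strand), the J-domain partner gene known for its induction by heat, came closest by signal. A ranked peak with a signal of 72.5 had its summit 128 bp upstream of the start site, with 29.4 in replicate 1 and 36.9 in replicate 2. By signal alone, 10.7% of optimal peaks were weaker. Its −log10 of the global IDR, for which the threshold is 2, was 0.13 in the ranked table of both replicates used throughout and 1.60 in the ranked table that pairs the replicates. A second peak of 66.8 lay 1062 bp downstream in the coding exon, with 1.52 and 1.76 in those tables. Both peaks thus fell below the threshold in both tables, by margins that depended on the table. Another ranked peak, with a signal of 22.9, lay 852 bp downstream in the coding exon and also fell below the threshold. An optimal peak with a signal of 176 lay 202 bp beyond the 3′ end of the gene, outside the rule, and another of 78.5 lay 764 bp from the gene near the start site of Usp47.

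Hsf (FBgn0001222, chr2R:18130303-18134634, minus strand), the gene of the heat shock factor itself, had 8 ranked peaks and none past the threshold. The strongest had a signal of 59.2 and lay 510 bp downstream of the start site in an intron, with 35.4 in replicate 1 and 19 in replicate 2. The peak nearest the start site, 50 bp upstream, had a signal of 14.5.

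Hsp68 (FBgn0001230, chr3R:24055080-24057310, minus strand), a heat-inducible Hsp70 family gene, had 3 ranked peaks of 24.9 to 27.7, all in its coding exon. The ranked table of replicate 1 listed none there and that of replicate 2 listed 5, the highest at 17.1. The table that pairs the replicates nevertheless gives each of the 3 peaks a component signal from both, 14.5 to 19.3 in the first column and 8.10 to 9.77 in the second, without replicate numbers. Hsp67Bc (FBgn0001229, chr3L:9371511-9372497, minus strand), a small heat shock protein gene, had 3 ranked peaks, the highest, 29.8, shared with the start of Hsp22. Hsp23 (FBgn0001224, chr3L:9381882-9382765, plus strand), a small heat shock protein gene of 884 bp and the shortest of the 10 genes, had no ranked peak in the list of both replicates, as did 13.8% of protein-coding genes. Replicate 2 alone listed one 87 bp upstream of its start site, with a signal of 14.2. At these 3 genes no list held a peak past the threshold.

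Hsp67Bc, Hsp22, Hsp26, Hsp23 and Hsp27 stand in one group of genes at cytological position 67B that spans 14.2 kb, together with CG4456, CG4461 and Hsp67Ba. Optimal peaks in this group lay at Hsp22, Hsp26 and Hsp27, with signals of 84.0, 179 and 649.9. Hsp23 lies next to Hsp27, and the Hsp27 peak lay 1149 bp beyond its end. Between the Hsp26 and Hsp27 peaks the ranked table held entries of 8.84 to 35.6 at Hsp67Ba and the antisense gene asRNA:CR43481. On the Hsp67Bc side the nearest optimal peak, with a signal of 105, lay 432 bp past the end of that gene and 21 bp from the start site of Fdx1. The Hsp26 and Hsp27 peaks thus stood at promoters, with low ranked values between them. The Hsp22 peak stood inside a gene, between its first and second start sites.

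**Figure D3:**
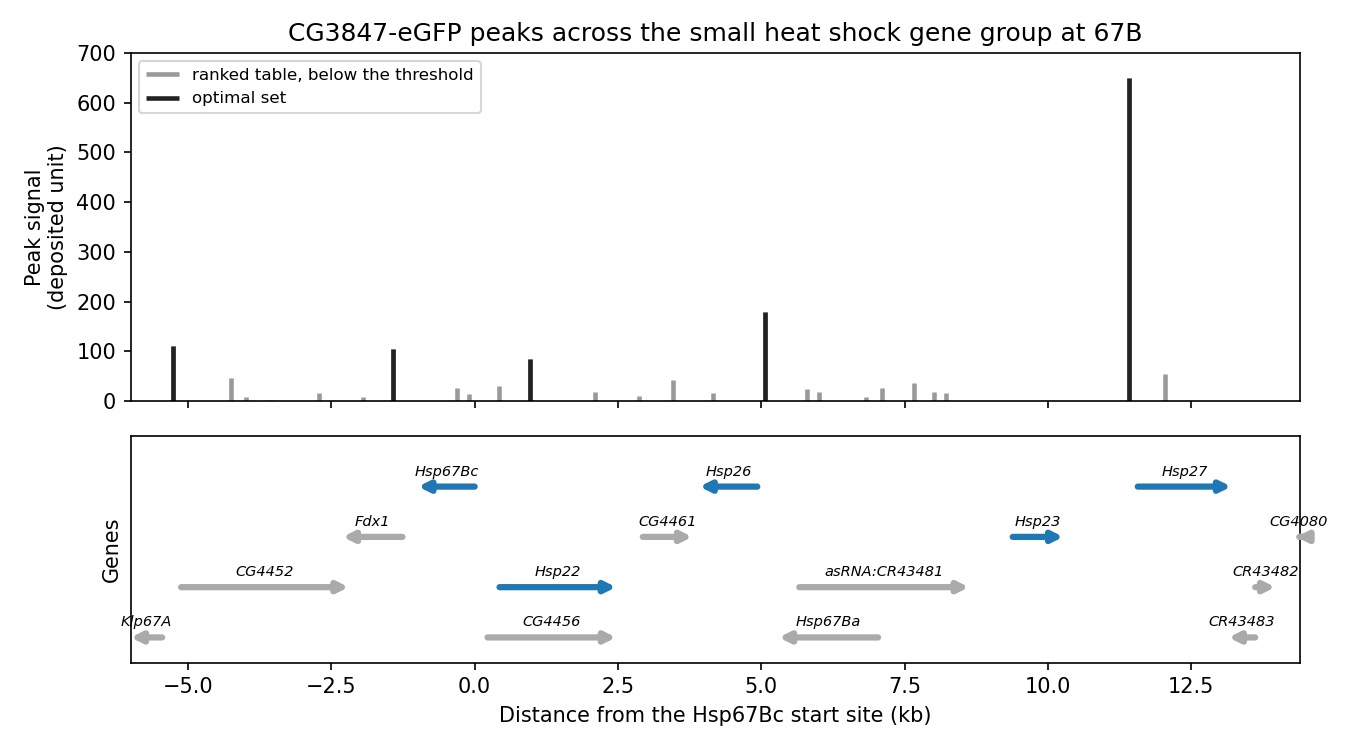
Peaks across the 67B gene group; the upper panel gives peak signal (deposited unit) against distance from the Hsp67Bc start site in kb, black for optimal peaks and grey for ranked peaks below the threshold, and the lower panel the genes with their direction (the 5 described genes in blue). The Hsp27 peak at 649.9 stands above the Hsp26 peak at 179 and the Hsp22 peak at 84.0.

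The summits of Hsp26, Hsp27 and Hsc70-4 lay 133, 149 and 156 bp upstream of a start site. Over the whole optimal set 12.1% of summits (741) lay 100 to 200 bp upstream, and 47.3% lay up to 500 bp upstream. These 3 peaks therefore shared a place that is common among the peaks of the series, a little upstream of the most frequent one. The Hsp83 promoter peak stood downstream of its first start site but upstream of its second, so its side depends on the start site used. In replicate 1 its summit was nearest the second start site, 111 bp upstream.

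**Figure D4:**
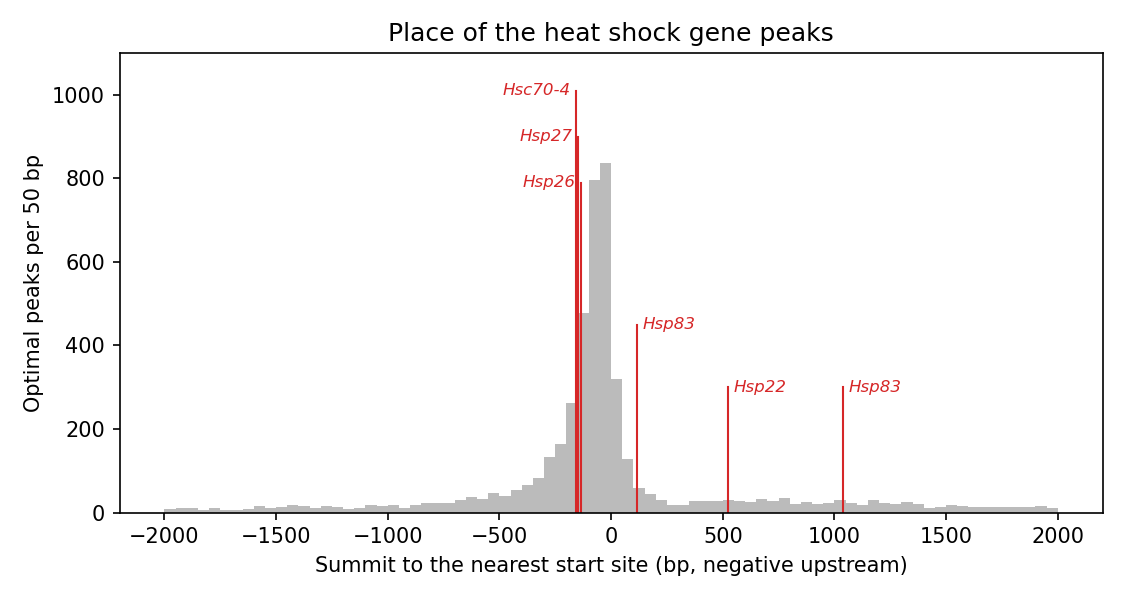
Optimal peaks per 50 bp by distance of the summit from the nearest start site (bp, negative upstream), with the 6 peaks of the described genes as red lines whose heights have no meaning. Hsp26, Hsp27 and Hsc70-4 lie between 100 and 200 bp upstream, and the Hsp83 and Hsp22 peaks downstream of the nearest start site. The Hsp83 promoter peak and the Hsp22 peak are also upstream of the second start site of their gene.

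The member peaks were 187 to 390 bp wide, and 4 of 6, those of Hsp27, Hsp83 and Hsc70-4, were narrower than 390 bp, the usual width. Narrow intervals made up 23.5% of all optimal peaks and 94.2% of the 925 peaks with a signal of 300 or more, so width moved with signal across the set.

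Heat shock elements did not map onto the peaks one to one. In 201 bp around the summit GAANNTTC was present in 5.51% of optimal windows and in 6.19% of equal windows upstream of all protein-coding genes, and TTCNNGAA in 5.03% and 5.15%. The Hsp26, Hsc70-4 and Hsp83 promoter windows held a pair, at 5, 0 and 65 bp from the summit, while the Hsp27, Hsp22 and Hsp83 intron windows held none. From 400 bp upstream to 50 bp downstream of the gene start, Hsp26 had 5 pairs, all inside its peak, and Hsp27 had 1, outside its peak 338 to 331 bp upstream. Overlapping pairs were each counted.

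Genes without an optimal peak held such pairs as well. Hsp68 had 6 pairs and 3 overlapping arrays of 3 alternating units, beginning 182, 177 and 172 bp upstream, and Hsp23 had 3 pairs. Over all protein-coding genes 23.1% had any pair in that window, 0.537% (75 genes) had 3 or more and 0.623% had an array. Among genes with a promoter peak the shares were 22%, 0.439% and 0.739%. So of Hsp26, Hsp68 and Hsp23, the 3 described genes with 3 or more pairs in that window, Hsp26 had a peak. The window was set on the gene start alone, and later start sites, as at Hsp22 and Hsp83, had none of their own. The pair near the Hsp83 promoter summit lay outside it.

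GAGAG was present in 21.7% of optimal windows and 22.2% of upstream windows. The Hsp26 window held it 5 times, on the strand opposite to that shown, and the other 5 member windows held none. TATAAA was present in 30.4% and 37.0%, and the Hsp26 and Hsp22 windows held it. The wider Hsp27 peak interval shown above also has GAGAG and TATAAA, both outside those 201 bp. The replication-related element TATCGATA (6.33% and 7.30%) and the E-box CAGCTG (11.9% and 11.5%) were in none of the 6 member windows. GC content in these windows was 27.4% at Hsp22, 29.9% at Hsp26, 38.8% at Hsp27 and 39.3% at Hsc70-4. The median was 37.3% over optimal peaks, also 37.3% over upstream windows, and 47.8% over ranked peaks below the threshold. A match of letters is a description of the window and not a measured site of any factor.

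Other genes of the folding machinery were described from 8 lists, chosen with earlier results of these data known. Of 65 genes found, 31 (47.7%) had an optimal promoter peak. Their median signal was 158, beside 173 over all 4330 genes with such a peak. The 47.7% was higher than the 31.0% of all protein-coding genes, and no test was made. Of the 31 genes, 20 had a promoter peak in both replicate sets. The matching share over all 4330 genes was not computed, so whether this replicate support is usual is not known. J-domain proteins, which deliver clients to Hsp70, had 10 of 14, led by mrj (809), DnaJ-60 (396), CG7130 (315) and DnaJ-H (294). Prefoldin, which passes new actin and tubulin to the chaperonin, had 4 of 6, with mgr at 522, Pfdn6 at 329, Pfdn2 at 91.4 and Pfdn5 at 77.6.

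Co-chaperones of Hsp70 and Hsp90 had 6 of 11, among them p23 (264), STUB1 (150), Stip1 (144) and Roe1 (129). The list of chaperonins, the ring-shaped folding machines, also holds Hsp10 and had 7 of 13. The strongest were CG11267 (240), which is Hsp10, CCT8 (171), CCT3 (158) and CCT2 (98.4). The Hsp90 family beside Hsp83 had 1 of 2, Gp93 of the endoplasmic reticulum at 130, while the mitochondrial Trap1 had a ranked peak of 61.0. Many promoter peaks in these lists also lay within 500 bp of another gene's start site and cannot be assigned to one gene. Among the named genes these were mgr (Irbp), Pfdn6 (Su(z)12), Pfdn2 (Noc1), CG7130 (RpLP0), DnaJ-H (Sirt1) and DnaJ-60 (CG42568 and spag). The same held for Stip1 (U2af38), CCT8 (CG30349), CCT3 (CG10324) and, described below, Hsc70-5 (CG8531). The counts in these lists include such peaks.

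Counts for the small heat shock and Hsp70 families depended on which genes were counted, a split made after the values were seen. Of 7 other small heat shock protein genes, CG14207 had a promoter peak (77.7), and it was in neither replicate set. With the 5 described genes of that family, of which Hsp26 and Hsp27 had a promoter peak, the count was 3 of 12. Of 11 other Hsp70 and Hsp110 genes, Hsc70-5 of the mitochondrion (368) and Hsc70-3 of the endoplasmic reticulum (136) had one. None of the 6 heat-inducible Hsp70 genes did. These Hsp70 genes are nearly identical copies, so reads from them may not map to a single place and the absence of a peak there is uncertain. Without them the family count was 2 of 5. Hsp70Ba had a ranked promoter peak of 44.2 and the other 5 copies had none.

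**Figure D5:**
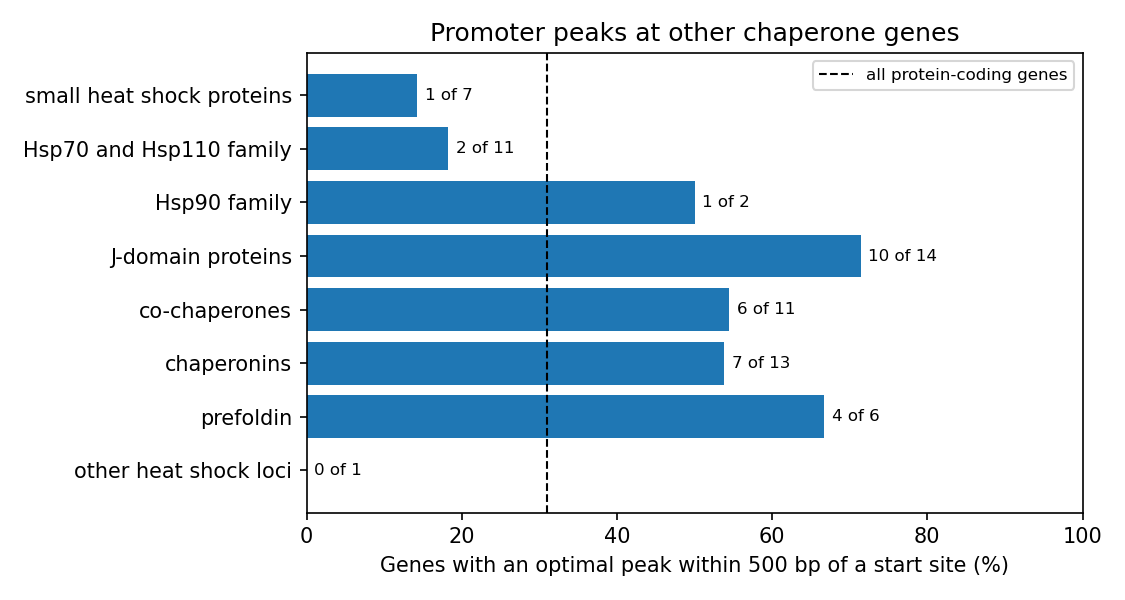
Share of the genes in each other chaperone list that have an optimal peak within 500 bp of a start site (percent), with the count beside each bar and the 31.0% of all protein-coding genes as a dashed line. J-domain proteins (10 of 14) and prefoldin (4 of 6) stand above the line, and the Hsp70 and Hsp110 family (2 of 11) and the other small heat shock proteins (1 of 7) below it. Without the 6 Hsp70 copies, where a missing peak is uncertain, 2 of 5 (40.0%) lie above the line, and with the 5 described genes the small heat shock proteins are 3 of 12 (25%).

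The noncoding heat shock gene lncRNA:Hsromega (FBgn0001234, chr3R:21296127-21317836), whose RNA collects RNA-binding proteins in the nucleus, had a strong ranked peak that is in none of the 4 thresholded sets. The peak (chr3R:21296207-21296416) had its summit 196 bp downstream of the gene start, a signal of 311 (rank 897 of 123663) and a −log10 of the global IDR of 5. Its signal was 159 in the ranked tables of both replicates. It is one of 171 ranked peaks past the threshold that the optimal set does not hold, of 6319 in all. The deposited file descriptions name a list of excluded regions among the inputs of the thresholded sets, and whether it covers this peak was not tested. Its signal lay between those of Hsp26 and Hsp83.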

How the data were processed

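ChIP-seq peak lists on assembly dm6 were analysed for 2 biological replicates of 1 group. Per the deposited file descriptions, IDR, which scores how well 2 rankings of the same peaks match, gave 4 thresholded sets and 4 ranked tables; the sets of both replicates are called optimal and conservative. Aligner, peak caller and versions: not given in the sources used here. Control libraries were not used here, so signal that is independent of CG3847 may be among the peaks. The authors' score rescales the IDR to a maximum of 1000, and 830 was the minimum in a thresholded set. The authors' signal is a peak height in the caller's own scale, used within a list. The deposited −log10 of the global IDR is in the ranked tables, and the deposited summit offset is in bp. P-values of single peaks were not used here. The depth is unknown, so no value has an interval.

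Genes came from Ensembl release 115 (annotation 6.54), sequences from RefSeq Release 6, and no peak ran past a chromosome end in that genome. Python 3.11.15, pandas 2.3.3, NumPy 2.4.6 and Matplotlib 3.10.9 were used. Peaks of 2 lists were matched by an overlap of at least 1 bp. The counting of genes was tested on simulated data. The 10 genes, the 8 chaperone lists and the rules were chosen with earlier results of these data known. Named genes are the 10 genes, their neighbours in promoter signal, other genes with a start site within 500 bp of their peaks, and up to 4 of each list with the strongest promoter peak; DnaJ-1's and Hsp67Bc's neighbouring peaks, Trap1, Hsp70Ba and lncRNA:Hsromega were named after their values were seen. Ahsa1 and Hsrbeta had no match in the annotation. Alternatives were other start site windows, peak sets, thresholds and overlap rules, and each replicate left out.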

Additional observations from a re-analysis of the deposited data

How the results depend on the processing

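Of 62 alternative values, 57 kept the main count within 1.5 times or the main value, and 5 moved further. A reversal was not among the outcomes that could be recorded. Several alternatives returned the same peak or reread the same replicate signals, so the 57 are not independent checks. A start site window of 1000 bp gave 7 of the 10 genes a promoter peak in place of 4, adding Hsp22 (its own peak), Hsp67Bc (the Hsp22 peak, 84.0) and DnaJ-1 (the peak near Usp47, 78.5). With gene spans included that window also gave 7 of the 10 genes, beside 37.6% of all protein-coding genes. The share for start sites alone was not computed at 1000 bp. The stronger 50% of the optimal peaks gave 3265 protein-coding genes with a peak in place of 4938, 19 other chaperone genes in place of 31, and 4 of the 10 genes. Leaving out a replicate gave 4 of the 10 genes with a peak, 3857 to 4123 protein-coding genes and 22 to 23 other chaperone genes. The counts of other chaperone genes use promoter peaks alone, while those of protein-coding genes include gene spans. The promoter share of all protein-coding genes was not computed for these alternatives. Hsp22 was lost when either replicate was left out, at a global IDR of 0.001 and among the stronger 50%, while Hsp26, Hsp27, Hsp83 and Hsc70-4 had a promoter peak under every alternative run. Counting every ranked peak past the threshold, chosen after seeing the data, added lncRNA:Hsromega to the other chaperone genes (32) and changed nothing at the 10 genes. No paired analysis was possible because the series holds 1 group. With 2 libraries, no depth and no control library used here, the precision of a signal cannot be given.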
